A study of Mus musculus with 12 samples.

Results

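The myogenic regulatory factors, the satellite cell transcription factors and the myostatin axis were described here through 8 genes, chosen by name: *Myod1*, *Myf5*, *Myog*, *Myf6*, *Pax3*, *Pax7*, *Mstn* and *Fst*. They were 8 of the 19938 genes measured, and each was read by 1 probe set of its own. To ask how these genes differed with *Cox6a2* deletion and with muscle, mRNA was measured on 12 mouse Gene 1.0 ST arrays, 3 for each of 4 groups: KO diaphragm, WT diaphragm, KO gastrocnemius and WT gastrocnemius. All mice were males 10 to 12 weeks old, labelled C57Bl6 in both genotypes. KO mice lacked *Cox6a2*, the heart and muscle subunit of cytochrome *c* oxidase, in every tissue, and the controls were wild-type mice from a commercial supplier that are not stated to be littermates. Values are log2 signals, so that a difference of 1 is a doubling, and they compare a gene between arrays, not one gene with another. Each group is given as mean ± SD (n = 3), and a difference was called where its limma p, adjusted over all genes by the Benjamini-Hochberg method, was under 0.05. Precision is limited by the number of arrays, and for 3 arrays against 3 the exact permutation test cannot go below p = 0.1.

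The *Cox6a2* signal was 6.89 ± 0.160 in KO diaphragm and 11.89 ± 0.159 on the arrays labelled WT diaphragm, 6.93 ± 0.235 in KO gastrocnemius and 11.74 ± 0.0961 in WT gastrocnemius, so that the genotype labels held on all 12 arrays. The label of the WT diaphragm arrays did not hold for muscle. *Hoxc10*, a gene of hindlimb position, averaged 4.18 in KO diaphragm and 8.68 on the arrays labelled WT diaphragm, with 8.53 in KO and 8.44 in WT gastrocnemius, and 8 of 10 hindlimb position genes were called lower in KO diaphragm than on those arrays. The mesothelial marker *Upk3b* averaged 9.31 in KO diaphragm, against 5.41 on the arrays labelled WT diaphragm, 5.16 in KO and 5.49 in WT gastrocnemius. The 12 muscle fiber markers averaged between 12.43 and 12.68 on every array, but this mean hid opposite changes of single markers. Of these, *Myh4* averaged 8.96 in KO diaphragm, 13.64 in KO gastrocnemius, 13.63 in WT gastrocnemius and 13.56 under the WT diaphragm label. It differed by -4.61 between the genotype labels in diaphragm and by -4.68 between the muscles of KO mice. Among the 12 markers, 5 were called higher and 4 lower in KO diaphragm when set against the arrays with the WT label. The directions below that involve diaphragm of WT mice are drawn from these arrays, called "the arrays labelled WT diaphragm", and genotype and muscle cannot be told apart there. KO diaphragm was therefore also set against KO gastrocnemius, and KO against WT gastrocnemius, comparisons whose means do not use these arrays, although all 12 arrays share 1 estimate of the spread. With these arrays out of the fit altogether, 1 call of the 8 genes changed, that of *Myog* between the muscles of KO mice.

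Skeletal muscle is built and repaired by precursors that pass through a fixed order of transcription factors. *Pax3* and *Pax7* mark the precursors and the satellite cells of adult muscle, which lie beneath the basal lamina of the fibers; *Myf5* and *Myod1* commit these cells to the muscle lineage, *Myog* drives their differentiation and fusion, and *Myf6* (MRF4) is the factor most abundant in mature fibers. *Mstn* encodes myostatin, a secreted TGF-β family ligand that holds back muscle growth, and *Fst* encodes follistatin, a secreted protein that binds and neutralizes myostatin and activins.

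Of the 8 genes, *Pax3* and *Fst* rose and *Myod1*, *Myog*, *Myf6* and *Mstn* fell in KO diaphragm relative to the arrays labelled WT diaphragm. The 2 of 8 higher stand beside 16.3% of all genes called higher in that comparison, and the 4 of 8 lower beside 11.2% called lower (3258 and 2238 genes; 2667 and 3836 after median centring of the arrays). In gastrocnemius none of the 8 was called between KO and WT mice, where 0.406% of all genes were called higher and 0.186% lower; 2 of the 8, *Myod1* and *Pax7*, had an unadjusted limma p under 0.05 there, and 1 had so by the methods' t-test. The calls of *Myog* and *Fst* in diaphragm were lost by the methods' t-test (adjusted p = 0.086 and 0.091). *Myf5* and *Pax7* were called in none of the 5 comparisons made.

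**Figure D1:**
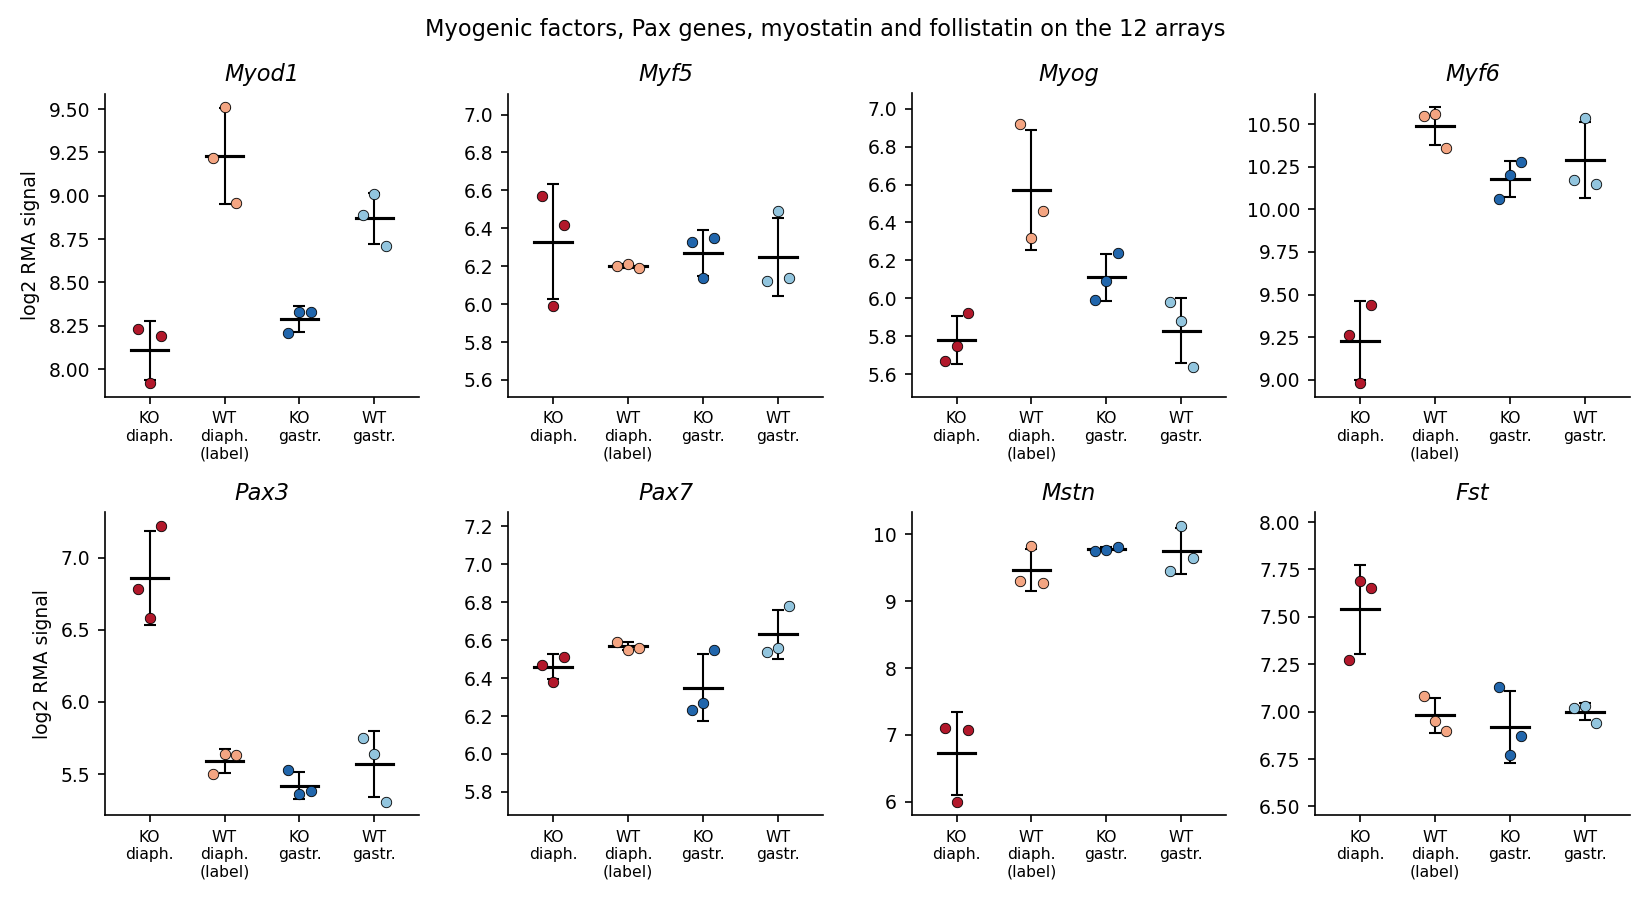
Log2 RMA signal (vertical axes, each with its own range) of the 8 genes for each group label (horizontal axes); each dot is 1 array, with the group mean as a line and the SD as a bar. The KO diaphragm arrays lie apart from the other 9 arrays for *Myf6*, *Pax3*, *Mstn* and *Fst*, while for *Myod1* the 6 KO arrays lie below the 6 WT arrays.

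*Myod1*, the factor that commits satellite cells to muscle, was called lower in KO diaphragm relative to the arrays labelled WT diaphragm, and the KO minus WT difference in gastrocnemius had the same sign without passing. Its signals were 8.23, 7.92 and 8.19 in KO diaphragm, against 9.22, 9.51 and 8.96 on the arrays labelled WT diaphragm. In gastrocnemius they were 8.21, 8.33 and 8.33 in KO mice, against 8.89, 9.01 and 8.71 in WT mice. The 6 KO arrays, at 7.92 to 8.33, thus lay wholly below the 6 WT arrays, at 8.71 to 9.51. In diaphragm *Myod1* fell by 1.12 on the log2 scale (standard error 0.133, limma adjusted p = 2.6e-05), which is 2.17-fold (95% interval 1.78 to 2.65). In gastrocnemius the difference was -0.58 (standard error 0.133, 95% interval -0.86 to -0.29), or 1.49-fold, and missed the threshold (limma adjusted p = 0.068). Between the 2 groups of KO mice, diaphragm minus gastrocnemius was -0.18 (95% interval -0.47 to 0.11, limma adjusted p = 0.35), and the difference between the genotype effects in the 2 muscles was -0.54 (limma adjusted p = 0.069); neither passed.

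*Myf5*, the other commitment factor, was called in no comparison. Its signals were 6.57, 5.99 and 6.42 in KO diaphragm, against 6.20, 6.21 and 6.19 on the arrays labelled WT diaphragm. In gastrocnemius they were 6.33, 6.14 and 6.35 in KO mice, against 6.12, 6.49 and 6.14 in WT mice. All 4 groups overlapped. KO minus WT was 0.13 in diaphragm (95% interval -0.17 to 0.42, limma adjusted p = 0.53) and 0.03 in gastrocnemius (95% interval -0.27 to 0.32, limma adjusted p = 0.95).

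*Myog*, the differentiation factor, had its highest signals on the arrays labelled WT diaphragm. It was at 5.67, 5.75 and 5.92 in KO diaphragm, against 6.92, 6.32 and 6.46 on those arrays. In gastrocnemius it was at 5.99, 6.09 and 6.24 in KO mice, against 5.98, 5.88 and 5.64 in WT mice. The arrays labelled WT diaphragm lay above the other 9. In diaphragm *Myog* fell by 0.79 (standard error 0.143, limma adjusted p = 8.8e-04), or 1.73-fold (95% interval 1.40 to 2.14). Between the muscles of KO mice, diaphragm minus gastrocnemius was -0.33 (95% interval -0.64 to -0.02), or 1.26-fold, and was not called (limma adjusted p = 0.10), but was called (limma adjusted p = 0.047) once the arrays labelled WT diaphragm were out of the fit. In gastrocnemius the 3 KO arrays lay just above the 3 WT arrays, but the difference of 0.27 (95% interval -0.03 to 0.58) missed the threshold (limma adjusted p = 0.35). The difference between these genotype effects, diaphragm minus gastrocnemius, was -1.06 (standard error 0.203, limma adjusted p = 0.0025).
The proximal promoter of *Myog* is shown because the MyoD family binds the E-box, CANNTG. The pattern, though not each single site, reads the same on both strands. The 2 E-boxes found are in capitals, CACATG and CAGTTG, with first bases at -138 and -12 from the start site. The window runs from 250 bases before to 50 bases after the RefSeq start (GRCm38.p6, chr1:134289754-134290053, + strand).
Myog: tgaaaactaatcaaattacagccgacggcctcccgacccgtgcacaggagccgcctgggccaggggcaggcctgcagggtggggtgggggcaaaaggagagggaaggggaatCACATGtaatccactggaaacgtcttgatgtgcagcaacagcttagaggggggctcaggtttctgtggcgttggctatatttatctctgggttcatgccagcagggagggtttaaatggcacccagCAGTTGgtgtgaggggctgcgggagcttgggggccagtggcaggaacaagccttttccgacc

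*Myf6*, the factor of mature fibers, was lower in KO diaphragm than in the other groups. Its signals were 9.26, 8.98 and 9.44 in KO diaphragm, against 10.55, 10.56 and 10.36 on the arrays labelled WT diaphragm. In gastrocnemius they were 10.06, 10.20 and 10.28 in KO mice, against 10.17, 10.54 and 10.15 in WT mice. Every KO diaphragm array lay below all other arrays, and the KO and WT gastrocnemius arrays overlapped. In diaphragm *Myf6* fell by 1.26 (standard error 0.132, limma adjusted p = 8.4e-06), or 2.40-fold (95% interval 1.97 to 2.91). In gastrocnemius KO minus WT was -0.11 (95% interval -0.39 to 0.18, limma adjusted p = 0.72). Within KO mice *Myf6* was lower in diaphragm than in gastrocnemius by 1.93-fold (log2 difference -0.95, standard error 0.132, limma adjusted p = 8.6e-05), a comparison in which 11.2% of all genes were called lower and 17.7% higher, and in which 2 of the 8 genes were lower and 2 higher.

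*Pax3* is a factor of limb and diaphragm muscle precursors that, in adult mice, stays on in the satellite cells of some muscles, the diaphragm among them. It was at 6.78, 6.58 and 7.22 in KO diaphragm, against 5.50, 5.64 and 5.63 on the arrays labelled WT diaphragm. In gastrocnemius it was at 5.53, 5.36 and 5.38 in KO mice, against 5.75, 5.64 and 5.31 in WT mice. The KO diaphragm arrays thus lay above the other 9, which overlapped. Those 9, at 5.31 to 5.75, were below the median signal of all genes, 6.11. *Pax3* rose by 1.27 in KO diaphragm (standard error 0.147, limma adjusted p = 2.0e-05), or 2.41-fold (95% interval 1.94 to 3.00), relative to the arrays labelled WT diaphragm. Against KO gastrocnemius it was higher by 1.44 (standard error 0.147, limma adjusted p = 6.3e-06), or 2.70-fold (95% interval 2.17 to 3.36). In gastrocnemius KO minus WT was -0.14 (95% interval -0.46 to 0.17, limma adjusted p = 0.66), and the arrays labelled WT diaphragm differed from WT gastrocnemius by 0.02 (95% interval -0.29 to 0.34, limma adjusted p = 0.97).

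*Pax7*, the paired-box factor of nearly all satellite cells, was at 6.47, 6.38 and 6.51 in KO diaphragm, against 6.59, 6.55 and 6.56 on the arrays labelled WT diaphragm. In gastrocnemius it was at 6.23, 6.27 and 6.55 in KO mice, against 6.54, 6.56 and 6.78 in WT mice. The KO mean was the lower one in gastrocnemius and, for KO diaphragm, against the arrays labelled WT diaphragm, but neither difference passed. KO minus WT was -0.11 in diaphragm (95% interval -0.33 to 0.11, limma adjusted p = 0.44), although the arrays did not overlap, and -0.28 in gastrocnemius (95% interval -0.49 to -0.06, limma adjusted p = 0.20), where they did. In bulk muscle, fewer satellite cells and less RNA per cell cannot be told apart, for *Pax7* as for the other genes of these cells.

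*Mstn*, the growth-restraining ligand, had the widest range of the 8 genes. It was at 7.10, 6.0 and 7.07 in KO diaphragm, against 9.30, 9.83 and 9.27 on the arrays labelled WT diaphragm. In gastrocnemius it was at 9.75, 9.77 and 9.81 in KO mice, against 9.46, 10.13 and 9.65 in WT mice. The lowest of the other 9 arrays thus exceeded the highest KO diaphragm array by more than the spread within any group. *Mstn* fell by 2.75 in KO diaphragm (standard error 0.250, limma adjusted p = 2.2e-06), or 6.72-fold (95% interval 4.63 to 9.74). Against KO gastrocnemius it was lower by 8.30-fold (log2 difference -3.05, standard error 0.250, limma adjusted p = 7.6e-07). In gastrocnemius KO minus WT was 0.03 (95% interval -0.51 to 0.56, limma adjusted p = 0.97). By mean level, KO diaphragm (6.72 ± 0.623) came below the arrays labelled WT diaphragm (9.47 ± 0.317), KO gastrocnemius (9.78 ± 0.0311) and WT gastrocnemius (9.75 ± 0.346), and these other 3 groups overlapped one another.
The proximal promoter of *Mstn* (GRCm38.p6, chr1:53061390-53061689, + strand, the same window) is shown beside that of *Myog*. Both transcripts fell with *Myod1* in the diaphragm comparison, which uses the arrays labelled WT diaphragm. In gastrocnemius KO minus WT was -0.58 for *Myod1*, 0.27 for *Myog* and 0.03 for *Mstn*, none of them called. Between the muscles of KO mice the values were -0.18, -0.33 and -3.05, of which only that of *Mstn* was called. A link between these genes was not tested. It holds 4 E-boxes, in capitals: CAAATG at -229 and -174, and CACTTG at -52 and -19.
Mstn: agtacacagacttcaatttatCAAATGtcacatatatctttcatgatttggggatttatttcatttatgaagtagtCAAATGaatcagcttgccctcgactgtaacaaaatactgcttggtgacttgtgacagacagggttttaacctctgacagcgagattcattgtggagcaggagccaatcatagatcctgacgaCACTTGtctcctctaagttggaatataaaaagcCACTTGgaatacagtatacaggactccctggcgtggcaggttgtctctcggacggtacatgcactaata
Of 32851 RefSeq promoters of this length, 72.3% hold 1 or more E-boxes, 39.6% hold 2 or more and 6.5% hold 4 or more. The *Myf5* and *Pax7* promoters, the other 2 of the 8 genes in the table, hold no E-box, and none of the 4 holds CAGCTG, which 16.3% of all promoters do. A match of these letters is a description of the sequence and shows no binding.

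*Fst*, the antagonist of myostatin and activins, went the other way from *Mstn* in diaphragm. It was at 7.27, 7.69 and 7.65 in KO diaphragm, against 7.08, 6.95 and 6.90 on the arrays labelled WT diaphragm. In gastrocnemius it was at 7.13, 6.77 and 6.87 in KO mice, against 7.02, 7.03 and 6.94 in WT mice. All 3 KO diaphragm arrays lay above the other 9, replicate 1 by the least. *Fst* rose by 0.56 in KO diaphragm (standard error 0.122, limma adjusted p = 0.0032), or 1.47-fold (95% interval 1.23 to 1.77), and was 1.53-fold higher there than in KO gastrocnemius (log2 difference 0.61, limma adjusted p = 0.0016). In gastrocnemius KO minus WT was -0.08 (95% interval -0.34 to 0.19, limma adjusted p = 0.79).

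**Figure D2:**
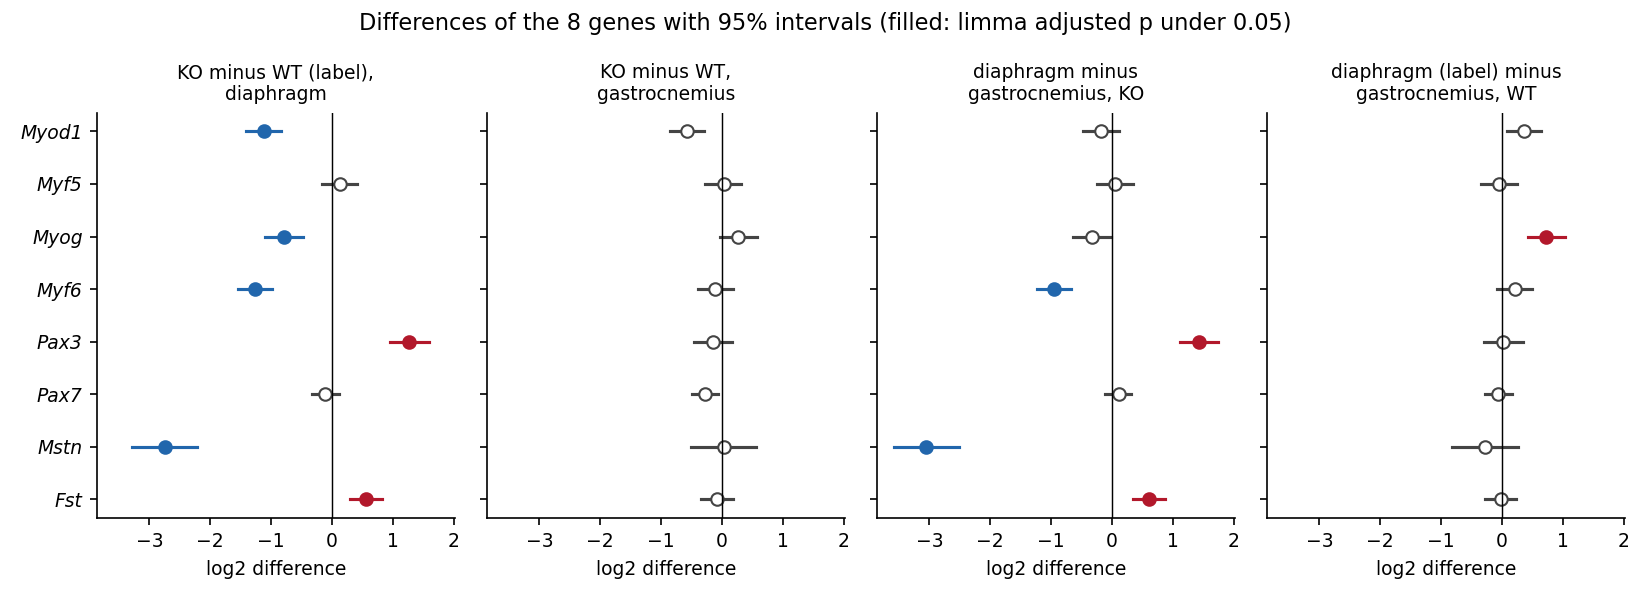
Log2 differences (horizontal axes) of the 8 genes (rows) in 4 comparisons (panels), from left to right KO minus WT in diaphragm, KO minus WT in gastrocnemius, diaphragm minus gastrocnemius in KO and the same in WT mice; points are limma estimates, bars are 95% intervals and filled points passed an adjusted p of 0.05. *Mstn* reaches -2.75 and -3.05 in the comparisons that hold KO diaphragm and lies at 0.03 and -0.28 in the others.

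In WT mice 1 of the 8 genes was called between the arrays labelled diaphragm and gastrocnemius. *Myog* was higher on the arrays labelled diaphragm by 0.73 (standard error 0.143, limma adjusted p = 0.041), or 1.66-fold, where 0.296% of all genes were called higher and 0.166% lower. This call rested on the fit over all 4 groups: with only these 6 arrays the difference was the same and the limma adjusted p was 0.11, and it was lost without any 1 of the 6 arrays except replicate 2 labelled WT diaphragm. *Myod1* differed by 0.36 there (95% interval 0.08 to 0.65, limma adjusted p = 0.26) and *Mstn* by -0.28 (95% interval -0.82 to 0.26, limma adjusted p = 0.70). Set beside these values, the same muscle labels in KO mice differed by -3.05 for *Mstn*, 1.44 for *Pax3*, -0.95 for *Myf6* and 0.61 for *Fst*.

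The genotype effect was compared between the muscles through the interaction, the KO minus WT difference in diaphragm less that in gastrocnemius. It passed for 5 of the 8 genes, 2 higher (where 8.76% of all genes were called higher) and 3 lower (where 6.07% were called lower). It was -2.77 for *Mstn* (standard error 0.354, limma adjusted p = 1.3e-04), -1.15 for *Myf6* (adjusted p = 7.5e-04) and -1.06 for *Myog*, and 1.41 for *Pax3* (adjusted p = 3.9e-04) and 0.64 for *Fst* (adjusted p = 0.022). The value for *Fst* lost its call without KO diaphragm replicate 2 or 3, replicate 3 labelled WT diaphragm, or KO gastrocnemius replicate 2 or 3 (values 0.56 to 0.61, limma adjusted p 0.053 to 0.061). All 5 interactions take in the arrays labelled WT diaphragm.

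**Figure D3:**
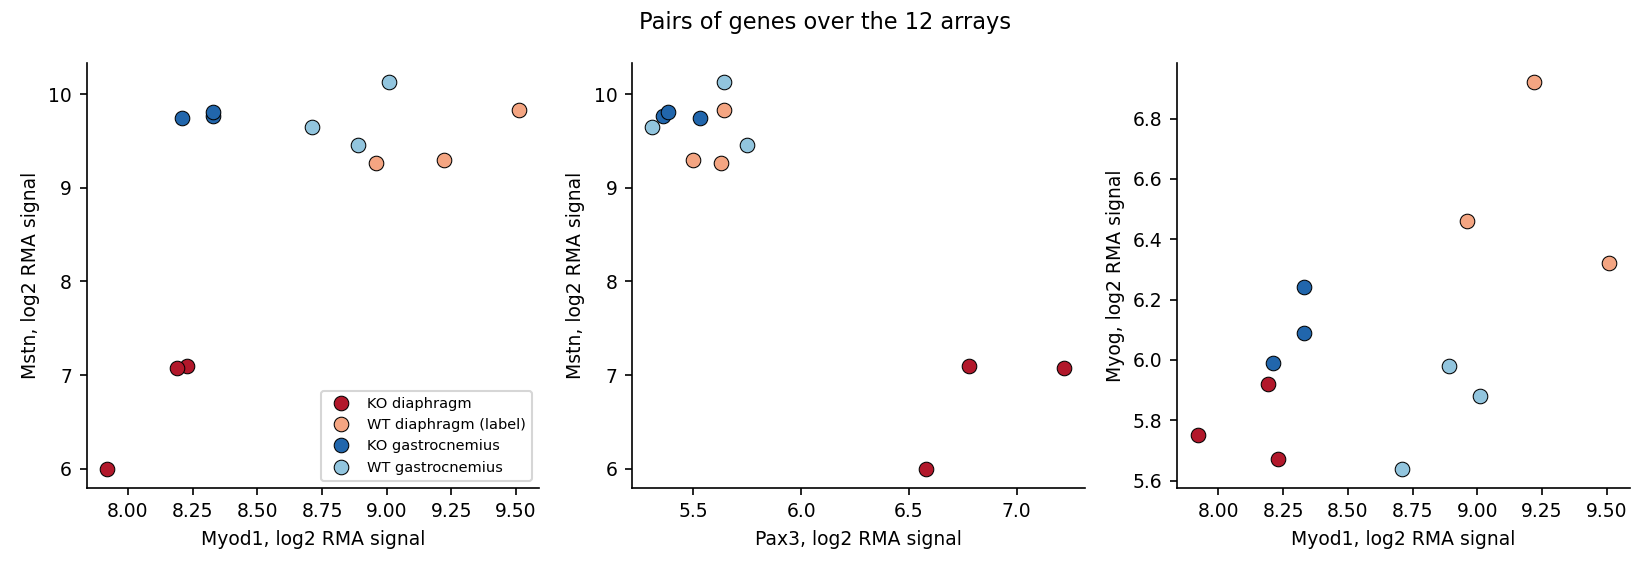
Log2 RMA signals of *Mstn* against *Myod1*, *Mstn* against *Pax3* and *Myog* against *Myod1* (axes), 1 point per array, colored by group label. KO diaphragm stands apart on *Mstn* (6.0 to 7.10) and *Pax3* (6.58 to 7.22), whereas on *Myod1* it lies beside KO gastrocnemius (7.92 to 8.23 and 8.21 to 8.33).

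The other genes of the pathways were taken from lists, and each list is given by its counts in KO minus WT. Beside them stand all genes, of which 16.3% were called higher and 11.2% lower in diaphragm, with a median difference of -0.04 there and -0.01 in gastrocnemius. By the methods' t-test, adjusted over all genes, 7 of the 8 lists held 3 to 5 called genes in diaphragm, fewer than below by over 1.5 times. Among the 9 measured ligands of the myostatin and activin family, 2 rose (22.2%) and 1 fell (11.1%) in KO diaphragm relative to the arrays labelled WT diaphragm (median -0.01), near the shares of all genes. *Gdf11*, the closest relative of myostatin, fell by 1.15 (standard error 0.0982, limma adjusted p = 1.3e-06), averaging 6.53 in KO diaphragm, 7.68 on the arrays labelled WT diaphragm, 8.12 in KO gastrocnemius and 7.92 in WT gastrocnemius. *Tgfb1* rose by 1.02 and the bone morphogenetic protein *Bmp4* by 0.66. The activin genes *Inhba* and *Inhbb*, whose products follistatin binds, both differed by -0.01. Their group means, 5.29 to 5.46 and 5.43 to 5.84, were all below the median signal of all genes, 6.11.

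Of 16 receptors and SMADs, the transducers of these ligands, 4 rose (25%) and 5 fell (31.2%; median -0.12). *Acvr1b*, a type I receptor of myostatin and activins, fell by 1.56 (standard error 0.203, limma adjusted p = 5.5e-05), and *Acvr2b*, a type II receptor to which myostatin binds, fell by 0.40 (limma adjusted p = 0.009). *Smad3*, which carries the signal to the nucleus, fell by 0.44. *Acvr1c*, another type I receptor, rose by 0.94, the ubiquitin ligase *Smurf1* by 0.53 and the TGF-β receptor *Tgfbr2* by 0.49. Of 17 binding proteins and proteases, 6 rose (35.3%) and 2 fell (11.8%; median 0.16), and without KO diaphragm replicate 3 the list held 5 called genes. Those that rose most were *Tll1* by 1.31, a protease of the tolloid family that frees myostatin from its propeptide, the latent TGF-β binding protein *Ltbp4* by 0.86, the matrix proteoglycan decorin (*Dcn*) by 0.59 and the follistatin-like *Fstl1* by 0.58.

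Of 30 surface and signalling genes of satellite cells, 9 rose (30%) and 1 fell (3.33%; median 0.18). The gene that fell was M-cadherin, *Cdh15*, which holds satellite cells to the fiber, by 0.36 (limma adjusted p = 0.01). The largest increases were those of the chemokine receptor *Cxcr4* (1.19), *Cd34* (1.02), the proteoglycan *Sdc3* (0.92) and the adhesion molecule *Vcam1* (0.87). These genes are not limited to satellite cells: endothelial cells also express *Cd34* and *Vcam1*, and leukocytes express *Cxcr4*. The calcitonin receptor *Calcr*, a marker of quiescent satellite cells, differed by -0.07 (limma adjusted p = 0.71). Its group means, 5.24 to 5.44, were all below the median signal of all genes, 6.11, so that this value says little about these cells.

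Of 25 partners and inhibitors of the myogenic factors, 6 rose (24.0%) and 2 fell (8%; median 0.07). *Id2* (1.36) and *Id3* (0.94), which titrate the E proteins that MyoD needs as partners, rose, as did *Hdac9* (1.47), a deacetylase that represses MEF2 factors, and *Bhlhe41*, a repressor of the same helix-loop-helix class, fell by 1.30. Of 26 upstream regulators of muscle identity, 7 rose (26.9%) and 5 fell (19.2%; median -0.07). *Eya4*, a transcriptional cofactor, fell by 3.04 (standard error 0.213, limma adjusted p = 1.9e-07), averaging 6.50 in KO diaphragm, 9.54 on the arrays labelled WT diaphragm, 8.87 in KO gastrocnemius and 8.90 in WT gastrocnemius. *Lbx1*, which acts in migrating muscle precursors, fell by 1.00. *Tbx1*, a regulator of head muscle, rose by 2.20, *Meox1*, a homeobox gene of the somite, by 1.13 and *Dach2*, also a transcriptional cofactor, by 1.08.

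Of 23 differentiation and fusion genes, 6 rose (26.1%) and 4 fell (17.4%; median -0.00). *Jam3*, an adhesion molecule of myoblasts, rose by 1.18, *Myof* (myoferlin, of membrane fusion) by 0.73 and the growth factor *Igf2* by 0.72, and the fiber protein gene *Igfn1* fell by 0.96. Of 16 denervation and synapse genes, which include targets of *Myog* in denervated muscle, 5 rose (31.2%) and 4 fell (25%; median -0.12). *Musk*, the receptor kinase of the motor endplate, fell by 1.46 (standard error 0.175, limma adjusted p = 2.7e-05), *Gadd45a* by 0.79 and acetylcholinesterase (*Ache*) by 0.75, and the nerve-derived organizer *Agrn* rose by 0.93.

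KO diaphragm set against KO gastrocnemius, whose means leave out the arrays in doubt while the spread is that of all 12 arrays, gave *Gdf11* at -1.59, *Acvr1b* at -1.58, *Acvr2b* at -0.63, *Tll1* at 1.37, *Eya4* at -2.37, *Lbx1* at -1.08, *Tbx1* at 2.57, *Dach2* at 1.22, *Id2* at 1.53, *Cdh15* at -0.45 and *Musk* at -1.10, all called by limma. Of the list genes named above as changed in diaphragm, *Acvr1c* (0.84, limma adjusted p = 0.051), *Hdac9* (0.53, limma adjusted p = 0.055) and *Gadd45a* (-0.56, limma adjusted p = 0.092) were not called. Nor were *Myod1* (-0.18, limma adjusted p = 0.35) and *Myog* (-0.33, limma adjusted p = 0.1). Both comparisons hold the same KO diaphragm arrays.

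Markers of other cell types moved with the diaphragm comparison. Higher in KO diaphragm were 8 of 8 mesothelial, 9 of 10 macrophage, 4 of 7 fibroblast, 6 of 8 endothelial and 6 of 7 adipocyte markers, with none lower. None of 5 Schwann cell markers was called, 1 of 8 pericyte and smooth muscle markers was higher and 4 lower, and 5 of 12 muscle fiber markers were higher and 4 lower. The pericyte and smooth muscle counts depended on the arrays labelled WT diaphragm. Against KO gastrocnemius, 3 of these 8 markers were higher in KO diaphragm and 1 lower. Between the WT labels, 2 of the 8 were higher on the arrays labelled diaphragm and 0 lower. The log2 of the summed signal of the mesothelial markers was 10.66 to 11.56 in KO diaphragm and 8.31 to 8.36 on the arrays labelled WT diaphragm, with 8.17 to 8.20 in KO and 8.32 to 8.58 in WT gastrocnemius. For the macrophage markers it was 11.60 to 12.36 in KO diaphragm and 10.18 to 10.79 on the arrays labelled WT diaphragm. For the adipocyte markers it was 11.10 to 12.20 in KO diaphragm and 10.21 to 10.36 on the arrays labelled WT diaphragm. These 2 groups did not overlap for the endothelial markers either, at 12.01 to 12.16 in KO diaphragm and 11.30 to 11.50 on the arrays labelled WT diaphragm. The fibroblast markers were at 12.43 to 12.86 in KO diaphragm and 12.27 to 12.38 on the arrays labelled WT diaphragm. In gastrocnemius the fibroblast markers were at 12.10 to 12.29 in KO mice and 12.26 to 12.98 in WT mice, so that WT gastrocnemius overlapped KO diaphragm. The part of these cells in the results for *Pax3*, *Fst*, *Mstn* and the satellite cell list was not tested.

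**Figure D4:**
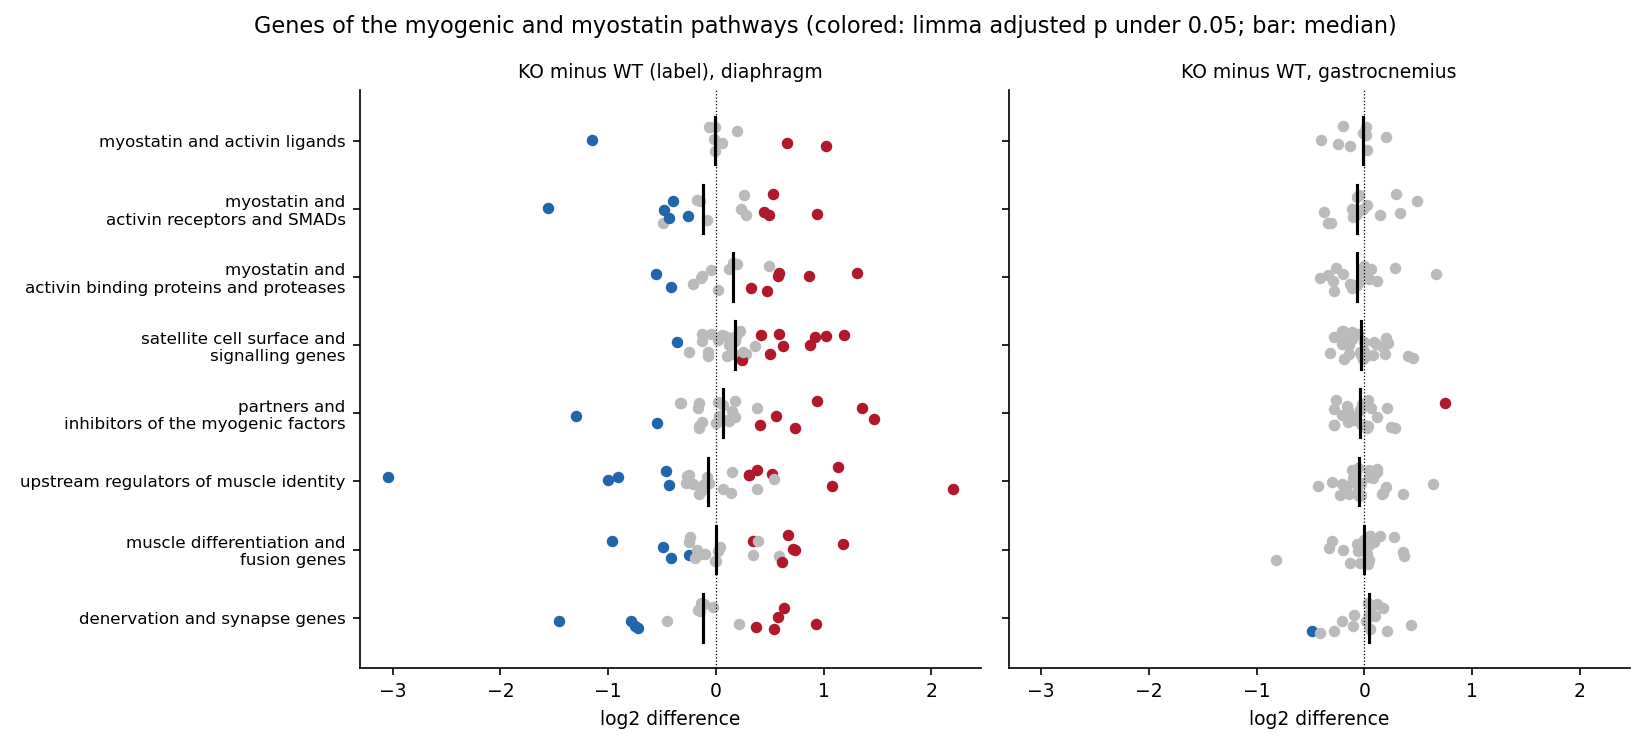
Log2 differences (horizontal axes) of the genes of 8 pathway lists (rows), KO minus WT in diaphragm (left, against the arrays labelled WT diaphragm) and in gastrocnemius (right); each point is a gene, colored where the limma adjusted p was under 0.05, and bars are list medians. *Eya4* (-3.04) and *Tbx1* (2.20) are the outermost genes on the left, and 2 genes are colored on the right.

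In gastrocnemius 2 genes of the 8 pathway lists were called. *Id1*, an inhibitor of the MyoD family, rose by 0.75 (standard error 0.108, limma adjusted p = 0.0072), and *Runx1*, a transcription factor induced in denervated fibers, fell by 0.49 (limma adjusted p = 0.039). In KO diaphragm relative to the arrays labelled WT diaphragm, *Id1* was higher by 0.73 (limma adjusted p = 1.7e-04) and *Runx1* by 0.37 (limma adjusted p = 0.011). The interaction of *Runx1* was 0.86 (limma adjusted p = 6.9e-04). Genotype and muscle cannot be told apart in these values. Between the muscles of KO mice, diaphragm minus gastrocnemius was 0.25 for *Id1* (limma adjusted p = 0.1, not called) and 0.85 for *Runx1* (limma adjusted p = 1.4e-05). Between KO and WT gastrocnemius no gene of the other 6 lists passed. The pairs with the smallest p there were *Inhbb* (-0.40) and *Gdf11* (0.20) among the ligands, *Smad3* (0.49) and *Tgfbr2* (-0.31) among receptors and SMADs, and *Pcsk5* (-0.41) and *Grem1* (-0.34) among binding proteins and proteases. They were *Sdc4* (0.45) and *Sdc3* (-0.32) among satellite cell genes, *Six2* (0.64) and *Sox8* (-0.30) among upstream regulators, and *Jam3* (0.37) and *Myh3* (0.27) among differentiation genes. The list medians lay between -0.07 and 0.04. The call of *Runx1* was lost with only the 6 gastrocnemius arrays in the fit, and without any 1 of 5 of these arrays. The macrophage markers were lower in KO gastrocnemius for 10 of 10 genes and the adipocyte markers for 7 of 7 (medians -0.31 and -0.43), with none called. The log2 of the summed signal was 10.24 to 10.49 in KO and 10.55 to 10.91 in WT gastrocnemius for the macrophage markers, and 10.21 to 10.41 in KO and 10.50 to 10.90 in WT gastrocnemius for the adipocyte markers. Beside them, the difference of *Myod1* in this muscle was -0.58 and that of *Pax7* -0.28; the part of these cells in them was not tested.

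For the 6 genes called in any comparison, the 3 genes of most similar pattern over the 12 arrays were taken by Pearson's r, as a description. For *Mstn* these were the stress kinase *Map2k4* (0.992), the membrane-bending protein *Bin1* (0.991) and *Ybx3* (0.988), and for *Myf6* they were *Eya4* (0.981), the sarcomere protein *Mypn* (0.980) and *Usp13* (0.980). For *Pax3* they were *Dach2* (0.984), *Klhl4* (0.977) and *Lpcat2* (0.975), and for *Fst* they were *Tmem106a* (0.971), *Aoah* (0.968) and *Rab5c* (0.968). For these 4 genes the 3 KO diaphragm arrays were set off from the 9 others, a shape shared by any gene that differed between KO diaphragm and the rest. *Myod1* was closest to the calcium channel subunit *Cacng7* (0.947), the deacetylase *Hdac4* (0.942), which represses MEF2 factors, and *Porcn* (0.941), and *Myog* to *Ints1* (0.936), *Olfr1089* (0.917) and *Ube2l3* (0.906).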

How the data were processed

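Total RNA of 12 muscles was hybridised to mouse Gene 1.0 ST arrays. The deposited values are log2 signals that the authors made with RMA sketch in Affymetrix Expression Console, of a version not given in the sources used here, so that background correction and normalization between arrays precede every value. They ran from 1.65 to 14.4. Of 35556 probe sets, 21789 carried 1 gene symbol in the platform annotation, 1621 several and 12146 none listed; the brightest probe set stood for each of 19938 genes, and 0 of the 8 genes had more than 1. The groups were fitted with limma 3.58.1 in R 4.3.3, in 1 model of 4 group means without a block (residual degrees of freedom 8, prior 6.18), over 5 comparisons, each adjusted over all 19938 genes. The fit was tested on simulated data. Named genes were the 8 genes, *Cox6a2*, up to 4 called genes per list and muscle by size of change, or the 2 of smallest p where none was called, and the 3 most alike in pattern. Genes outside this rule (*Inhba*, *Inhbb* in diaphragm, *Acvr2b*, *Smad3*, *Cdh15*, *Calcr*, *Lbx1*, *Hoxc10*, *Upk3b* and *Myh4*) were added after their values were seen. The members and lists were chosen with earlier results of these data known. Alternatives were the methods' t-test, each array left out in turn, the arrays labelled WT diaphragm left out together, each pair of groups fitted alone, the replicate number as a fixed or random block (statmod 1.5.0), quantile normalization, median centring, robust eBayes with a trend, probe sets averaged per gene, and only genes with a mean signal no lower than the median. Promoters came from a RefSeq table of GRCm38.p6, which held 4 of the 8 genes.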

Additional observations from a re-analysis of the deposited data

Results flagged for a closer look

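The limma test of the difference itself flagged 5 of the 8 genes as having a KO effect that differed between the muscle labels: KO minus WT in diaphragm less that in gastrocnemius was -2.77 for *Mstn*, -1.15 for *Myf6*, -1.06 for *Myog*, 1.41 for *Pax3* and 0.64 for *Fst*. Each rests on the arrays labelled WT diaphragm, which carry hindlimb position genes, so that genotype and muscle cannot be told apart in them.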

How the results depend on the processing

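The 16 called differences of the 8 genes kept their direction in all 258 alternatives and their call in 241; the other 17 missed the threshold. By the methods' t-test after adjustment, *Myog* (adjusted p = 0.086) and *Fst* (0.091) in diaphragm and *Fst* between KO muscles (0.09) were not called. In WT mice the 1 called gene, *Myog*, became 0 with only the 6 arrays compared, with the replicate number as a fixed block (limma adjusted p = 0.069), among genes at or above the median signal, where *Myog* was not tested, and by the methods' t-test; leaving out 1 array gave 0 to 1. The interaction of *Fst* missed the threshold after median centring (0.50, limma adjusted p = 0.057). Of 24 differences not called, 7 of 380 alternatives brought a call: *Myog* between KO muscles with only these 6 arrays (-0.33), without the arrays labelled WT diaphragm (-0.33), after median centring (-0.46) and after quantile normalization (-0.43), and the *Myod1* interaction after median centring (-0.68), among genes at or above the median signal (-0.54) and without WT diaphragm replicate 3 (-0.68). Uncalled values near 0 changed sign in 24 alternatives: after quantile normalization *Mstn* in gastrocnemius (-0.03), after median centring and after quantile normalization *Myf5* (-0.07 in both) and *Pax7* (-0.02 in both) between KO muscles and the *Myf5* interaction (-0.03 in both). With 1 array left out, the ranges were -0.04 to 0.14 for *Myf5*, -0.12 to 0.22 for *Mstn*, -0.18 to 0.02 for *Myf6* and -0.18 to 0.00 for *Fst* in gastrocnemius, -0.07 to 0.22 for *Myf5* between KO muscles, -0.11 to 0.07 for *Myf5*, -0.10 to 0.12 for *Pax3*, -0.10 to 0.02 for *Pax7* and -0.07 to 0.02 for *Fst* between WT muscles, and -0.02 to 0.27 for the *Myf5* interaction. The causes were not tested.

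Same-numbered arrays did not deviate together (r -0.07 to 0.15 over genes), so that the numbers give no pairing; the replicate block changed no call of the 8 genes other than that of *Myog* in WT mice. Scaling moved the split of all calls: in diaphragm 3258 higher and 2238 lower became 2667 and 3836 after median centring and 2812 and 2863 after quantile normalization, between KO muscles 3535 and 2232 became 2389 and 4323, and 2798 and 2828, and for the interaction 1747 and 1211 became 1225 and 2291, and 1507 and 1414. Centring shifted the median of all genes to -0.12 in diaphragm, -0.11 between KO muscles and -0.13 for the interaction. In gastrocnemius 81 higher and 37 lower became 188 and 29 after centring, and the methods' t-test called 0 of all genes after adjustment, with 2708 at an unadjusted p under 0.05. Of 527 alternatives for the counts of the 17 lists, 493 stayed within 1.5 times and 34 moved further. In diaphragm these were 13 lists under the methods' t-test, 2 among genes at or above the median signal, 1 each after median centring and quantile normalization (Schwann cell markers), and 1 with 1 array left out (binding proteins and proteases). In gastrocnemius, where lists held 0 or 1 called gene, the moves were of that size; leaving out 1 array moved the denervation list in 5 cases. The number of arrays limits every interval.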
